A study of Vitis vinifera with 24 samples.

Results

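The data concern 162 genes whose transcript levels fell between mid-ripening and ripeness in unfertilized Sauvignon blanc berries in both 2013 and 2014. They were selected out of 16899 genes whose mean level reached 0.5 RPKM (reads per kilobase of exon, scaled to the mapped reads of the library) in each year, which is 0.959% of those genes. For each gene the mean log2(RPKM + 0.5) of the control libraries at (v + 35) was set against that at (v + 28), and the difference had to be -0.6 or below in both years. All 3 libraries at (v + 35) also had to lie below all 3 at (v + 28). These control values chose the genes, so they are given as a description without a test, and the question put to the data was whether the same genes fell in berries of fertilized vines, which the selection did not use.

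Berries, cut at the pedicel with the skin left intact, came from irrigated Bordeaux vines of the cultivar Sauvignon blanc. The 8 groups had 3 libraries each, 24 libraries in all, and were formed by soil N100 or control, by (v + 35) or (v + 28), and by 2013 or 2014. Soil N100 vines received 100 units of nitrogen per ha on the soil, split between bud break and flowering, and control vines received none. The stages (v + 28) and (v + 35) were 28 and 35 days after mid-veraison, the onset of ripening. Each stage was thus a set day within a year. Ripening and conditions particular to the sampling day cannot be told apart in a change between the stages. Another clone on another rootstock was used in the second season, and each season has its own table, so levels were compared only within a year.

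In grape berries, ripening begins with softening and the loss of green colour, and goes on with the import of sugar and water while malate is consumed. Cell walls are taken apart and rebuilt by enzymes that act on pectin and xyloglucan, chloroplast functions are run down, and growth hormones such as auxin give way to others.

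All 162 genes had a negative change in soil N100 berries too, in 2013 and again in 2014, where 60.3% and 50.3% of all genes tested had one. In 2013, 108 of the 162 fell in N100 berries, that is with an adjusted p not above 0.05 and a log2 change of -0.6 or below, and 0 rose. Among all 17298 genes tested in that year 3.99% fell and 3.02% rose by the same criteria. With median ratio scaling the split of all genes turned from 691 falling and 522 rising to 464 falling and 622 rising, while 90 of the 162 fell and 0 rose. In 2014, 99 of the 162 fell and 0 rose, against 1.60% and 0.483% of 17171 genes. The members that fell in both years numbered 72, where 0.639% of the 16899 genes did so, and 27 were called in neither year. The remaining 63 passed in a single year, 36 of them in 2013 and 27 in 2014.

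The median log2 change in N100 berries was -0.85 in 2013, with a range of -2.33 to -0.01, while the median over all genes tested was -0.08. In 2014 the median was -0.73, with a range of -2.76 to -0.10, and the median over all genes was -0.002. In control berries, whose values chose the genes, the medians were -0.88 and -0.84. The change in N100 berries was the more negative one for 70 of the 162 genes in 2013 and for 40 in 2014. The difference between both changes had a median of 0.06 in 2013 and 0.12 in 2014, where all genes had 0.01 and 0.04, but the control side of this difference was selected to be low and no test was made of it.

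The N100 libraries of the 2 stages separated for most of the genes. All 3 libraries at (v + 35) lay below all 3 at (v + 28) for 136 of the 162 genes in 2013, against 24.8% of all genes tested. For 2014 this held for 154 of them, against 17.1%, and 129 genes had separate libraries in both years, against 7.54% of all genes. When fold and separation were both asked of the N100 berries in both years, 139 genes passed, of which 83 were among the 162. These 83 are 59.7% of the genes passing in N100 berries and 51.2% of the 162.

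**Figure D1:**
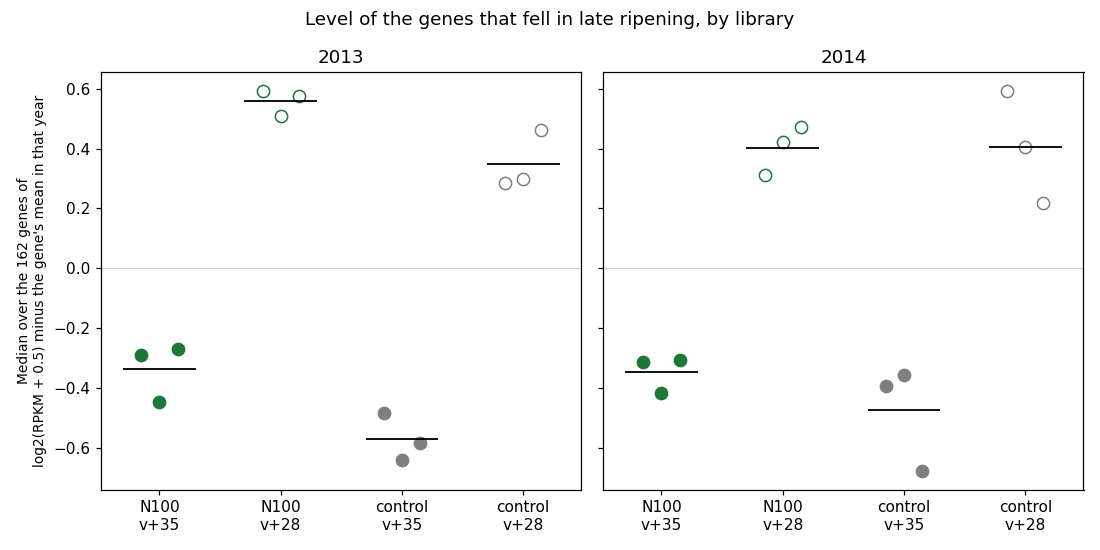
Level of the 162 genes in each library, as the median over the genes of log2(RPKM + 0.5) minus the gene's mean in that year. Points are libraries, filled at (v + 35) and open at (v + 28), green for soil N100 and grey for control, and bars are group means. N100 libraries lay between -0.45 and -0.27 at (v + 35) and between 0.51 and 0.59 at (v + 28) in 2013, and between -0.42 and -0.31 at (v + 35) and between 0.31 and 0.47 at (v + 28) in 2014.

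As a share of summed RPKM the 162 genes took 0.393 to 0.444% in the N100 libraries at (v + 35) and 0.704 to 0.794% at (v + 28) in 2013. In 2014 they took 0.241 to 0.271% at (v + 35) and 0.425 to 0.485% at (v + 28). No library at (v + 35) reached the share of any library at (v + 28) in either year. The typical member was moderately expressed, with a median of the mean levels of 8.40 RPKM in 2013 and 6.33 RPKM in 2014, where all tested genes had 9.08 and 8.85 RPKM. The lowest library of a member held a median of 218.5 reads in 2013 and 240 in 2014, as recovered from the RPKM values, but as few as 3 and 1 for the scarcest genes.

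**Figure D2:**
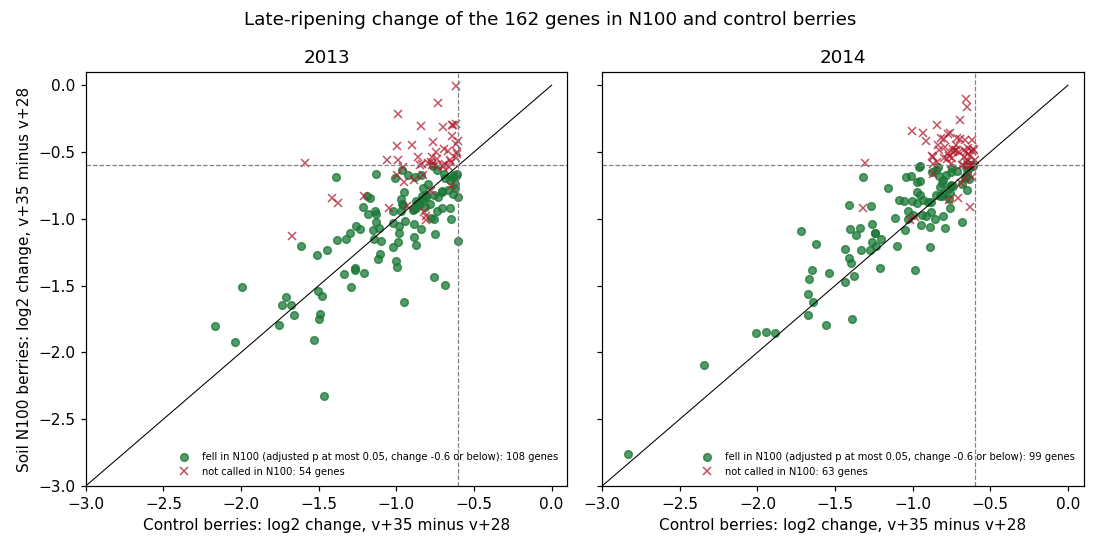
Log2 change from (v + 28) to (v + 35) of the 162 genes in soil N100 berries (vertical) and in control berries (horizontal) for each year. Dashed lines mark -0.6, the solid line marks equal change, and the genes stop at the vertical dashed line because control values chose them. Green circles are the 108 and 99 genes that fell in N100 berries and red crosses the 54 and 63 that were not called.

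Seeds are part of a whole berry, and the sources used here do not say whether they were taken out before grinding. Seed markers were therefore measured beside these genes. The 17 seed storage and LEA genes of the study's gene tables summed to 449 to 539 RPKM in N100 libraries at (v + 35) and 339 to 677 RPKM at (v + 28) in 2013, so the stages overlapped, and 6 of the 17 had a negative N100 change. In 2014 they summed to 469 to 638 RPKM at (v + 35) and 702 to 769 RPKM at (v + 28), without overlap, and 16 of the 17 had a negative change. The 6 seed regulator genes overlapped in 2013 but not in 2014, when they summed to 12.5 to 13.3 RPKM at (v + 35) and 17.3 to 17.6 RPKM at (v + 28). None of these genes was at 0 in any group, and the part of seed RNA in the 2014 result was not tested. Fewer cells of a type and less RNA per cell cannot be told apart in whole berries.

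Of the 162 genes, 43 have a description in the study's gene tables, 4 of these as an unknown protein, and 119 have none. The described genes were chosen by the study for their response to nitrogen in these same libraries, so their makeup is not an independent picture of what falls in ripening. The N100 libraries took part in that choice. The N100 counts and medians of the described genes, and the p-values of single described genes below, are therefore not independent of it. No test set the described genes against the other genes. Of the 569 genes of these tables that were tested in both years 7.56% were members, and the counts of members in the lists below stand beside that share. In N100 berries 32 of the 43 fell in 2013 and 34 in 2014, 27 of them in both years. Of the 119 without a description 76 fell in 2013 and 65 in 2014, 45 of them in both years. The medians were -1.05 and -0.97 for the described genes and -0.83 and -0.68 for the others.

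**Figure D3:**
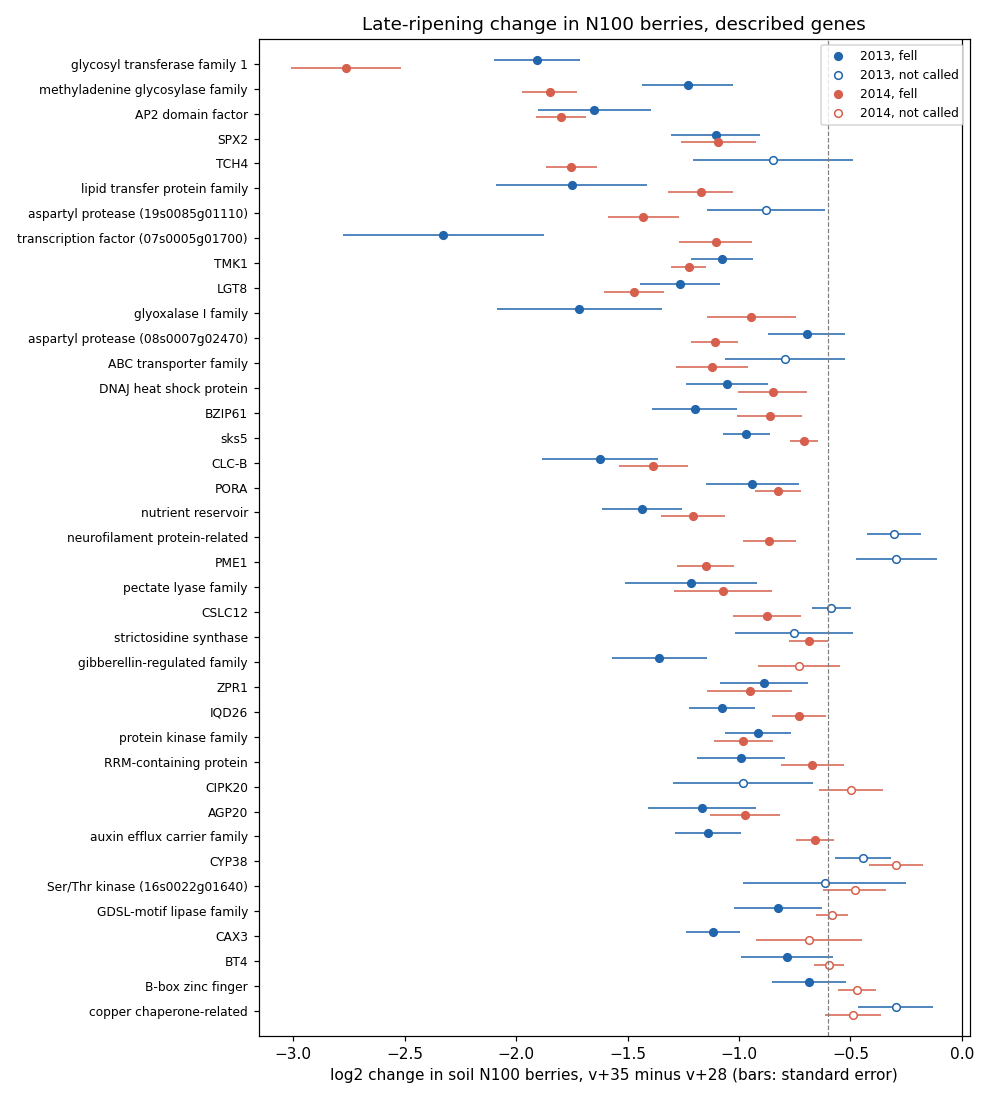
Log2 change from (v + 28) to (v + 35) in soil N100 berries, with its standard error, for the 39 described genes other than unknown proteins, in blue for 2013 and in red for 2014. Filled points fell (adjusted p not above 0.05 and change -0.6 or below), open points were not called, and the dashed line marks -0.6. Genes are ordered by their fall in control berries, the largest at the top, and all points lie below 0.

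The described gene with the largest mean fall in control berries was a glycosyl transferase family 1 protein (VIT_06s0004g05660), of the class of enzymes that attach sugars to small molecules or polymers. In N100 berries of 2013 its libraries had 4.80, 7.24 and 6.98 RPKM at (v + 35), against 31.0, 23.6 and 20.8 RPKM at (v + 28). In 2014 they had 0.883, 1.63 and 0.690 RPKM at (v + 35), against 7.41, 12.5 and 10.2 RPKM at (v + 28). Neither year showed any overlap between the stages, and the log2 change was -1.91 ± 0.19 (SE, adjusted p = 0.0036) in 2013 and -2.76 ± 0.25 (SE, adjusted p = 0.0045) in 2014. In control berries, where it was selected, the changes were -1.53 and -2.83.

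Wall genes supplied 5 members out of 35 wall genes of the gene tables that were tested in both years. All 5 fell in N100 berries of 2014 and 2 of them in 2013. Among the 35 wall genes, 8 fell and 1 rose in 2013, and 13 fell and 1 rose in 2014, with medians of -0.47 and -0.56.

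A pectate lyase family protein (VIT_01s0137g00240), of the enzymes that cut demethylated pectin, fell in both years. Its N100 libraries had 4.40, 2.99 and 6.55 RPKM at (v + 35), against 11.8, 7.58 and 14.7 RPKM at (v + 28) in 2013, and 1.25, 2.14 and 1.69 RPKM at (v + 35), against 2.84, 5.10 and 4.53 RPKM at (v + 28) in 2014. The stages did not overlap in either year, and the log2 changes were -1.21 ± 0.30 (SE, adjusted p = 0.037) and -1.07 ± 0.22 (SE, adjusted p = 0.036). AGP20 (VIT_15s0046g01360), an arabinogalactan protein of the cell surface, also fell in both years, with log2 changes of -1.17 ± 0.24 (SE, adjusted p = 0.024) in 2013 and -0.97 ± 0.16 (SE, adjusted p = 0.02) in 2014. Its N100 libraries had 7.36, 4.61 and 6.84 RPKM at (v + 35), against 16.6, 10.1 and 17.9 RPKM at (v + 28) in 2013, again without overlap.

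PME1 (VIT_09s0002g00330), a pectinesterase that removes methyl groups from pectin and so opens it to other enzymes, behaved differently in the 2 years. In N100 berries of 2013 it had 23.6, 17.1 and 29.6 RPKM at (v + 35), against 26.2, 29.3 and 29.2 RPKM at (v + 28). The highest library at (v + 35) lay slightly above each of those at (v + 28), and the log2 change was -0.29 ± 0.18 (SE, adjusted p = 0.31), which did not pass. In 2014 the libraries had 10.5, 9.30 and 9.87 RPKM at (v + 35), against 18.3, 23.7 and 26.5 RPKM at (v + 28), well apart, and the gene fell, with a log2 change of -1.15 ± 0.13 (SE, adjusted p = 0.0071). The change in 2014 minus that in 2013 was -0.86 ± 0.22 (SE, adjusted p = 0.036).

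TCH4 (VIT_11s0052g01300), a xyloglucan transferase that cuts and rejoins xyloglucan chains, had overlapping N100 libraries in 2013, with 1.90, 3.34 and 0.792 RPKM at (v + 35), against 4.32, 2.78 and 3.87 RPKM at (v + 28). The change of -0.85 ± 0.36 (SE, adjusted p = 0.15) was not called. In 2014 its libraries had 0.567, 0.416 and 0.666 RPKM at (v + 35), against 2.99, 3.02 and 3.05 RPKM at (v + 28), a narrow set at each stage, and it fell, with a log2 change of -1.75 ± 0.12 (SE, adjusted p = 0.0012). CSLC12 (VIT_18s0001g08580), a cellulose synthase-like protein of the family that makes the xyloglucan backbone, had 19.8, 19.8 and 18.7 RPKM at (v + 35), against 28.8, 28.8 and 30.7 RPKM at (v + 28) in 2013. Although these libraries were far apart, the change of -0.59 ± 0.09 (SE, adjusted p = 0.01) stopped just short of -0.6, while in 2014 it fell, with a log2 change of -0.88 ± 0.15 (SE, adjusted p = 0.024).

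Among genes filed under other headings were a pair related to the wall. LGT8 (VIT_01s0026g00980), a family 8 glucosyl transferase annotated as a pectin-building galacturonosyltransferase, had 9.08, 9.41 and 8.84 RPKM at (v + 35), against 21.1, 18.0 and 30.4 RPKM at (v + 28) in N100 berries of 2013, and 6.42, 4.15 and 5.11 RPKM at (v + 35), against 14.5, 15.4 and 15.7 RPKM at (v + 28) in 2014. No library overlapped between stages, and the gene fell, with log2 changes of -1.26 ± 0.18 (SE, adjusted p = 0.0091) and -1.47 ± 0.14 (SE, adjusted p = 0.0046). The most abundant described gene was sks5 (VIT_03s0038g03570), related to the cell surface glycoprotein SKU5 of Arabidopsis. It had 186, 151 and 170.3 RPKM at (v + 35), against 336, 316 and 338 RPKM at (v + 28) in 2013, and 136, 133 and 123 RPKM at (v + 35), against 206, 217 and 217 RPKM at (v + 28) in 2014, and fell, with log2 changes of -0.97 ± 0.11 (SE, adjusted p = 0.0042) and -0.71 ± 0.06 (SE, adjusted p = 0.0045).

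**Figure D4:**
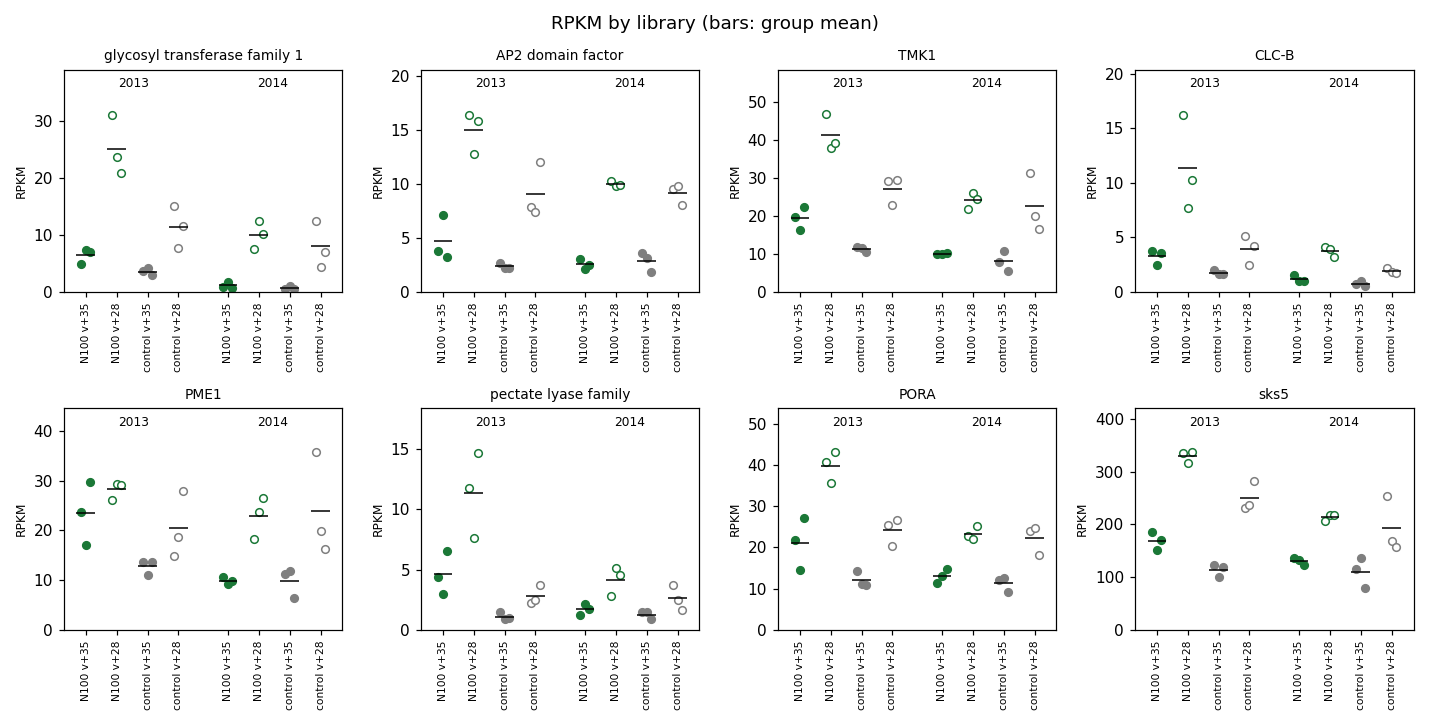
RPKM of 8 described genes in every library, linear axes starting at 0. Points are libraries, filled at (v + 35) and open at (v + 28), green for soil N100 and grey for control, bars are group means, and 2013 stands left of 2014 in each panel. The N100 stages overlap only for PME1 in 2013, and the abundant gene sks5 reached 338 RPKM in N100 berries at (v + 28) in 2013.

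Regulators of transcription and RNA were the most numerous described group, with 6 members among 45 such genes tested in both years. All 6 fell in N100 berries of 2013, and 4 of them fell in 2014. Over the 45 genes, 10 fell and 4 rose in 2013, and 9 fell and 5 rose in 2014, with medians of -0.33 and -0.27.

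An AP2 domain transcription factor (VIT_18s0001g03240), of a family that includes many ethylene and stress response factors, had 3.74, 7.07 and 3.22 RPKM at (v + 35), against 16.4, 12.8 and 15.8 RPKM at (v + 28) in N100 berries of 2013. In 2014 it had 2.97, 2.10 and 2.50 RPKM at (v + 35), against 10.3, 9.75 and 9.84 RPKM at (v + 28). The stages were apart in both years, and it fell, with log2 changes of -1.65 ± 0.25 (SE, adjusted p = 0.011) and -1.80 ± 0.11 (SE, adjusted p = 0.0011). A gene described only as a transcription factor (VIT_07s0005g01700) showed the largest N100 fall of all 162 genes in 2013, -2.33 ± 0.45 (SE, adjusted p = 0.02), from libraries with 1.18, 0.693 and 3.27 RPKM at (v + 35), against 9.28, 5.72 and 15.1 RPKM at (v + 28). These libraries scattered widely within each stage without overlapping. In 2014 its change was -1.11 ± 0.16 (SE, adjusted p = 0.017).

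BZIP61 (VIT_19s0014g01780), a basic leucine zipper factor, had 17.7, 12.1 and 19.8 RPKM at (v + 35), against 37.0, 32.9 and 44.5 RPKM at (v + 28) in 2013, and fell, with a log2 change of -1.20 ± 0.19 (SE, adjusted p = 0.012). In 2014 it fell, with a log2 change of -0.86 ± 0.15 (SE, adjusted p = 0.023), again without overlap. An RNA recognition motif protein (VIT_18s0001g05840) fell, with log2 changes of -0.99 ± 0.20 (SE, adjusted p = 0.022) in 2013 and -0.67 ± 0.14 (SE, adjusted p = 0.038) in 2014. BT4 (VIT_07s0129g00210), a BTB and TAZ domain protein, fell in 2013, with a log2 change of -0.79 ± 0.20 (SE, adjusted p = 0.045), and its 2014 value of -0.60 ± 0.07 (SE, adjusted p = 0.0069) lay just above -0.6. A B-box zinc finger protein (VIT_01s0011g04250) likewise fell in 2013, with a log2 change of -0.69 ± 0.16 (SE, adjusted p = 0.036) and had -0.47 ± 0.09 (SE, adjusted p = 0.027) in 2014. ZPR1 (VIT_15s0048g00740), a little zipper protein that in Arabidopsis restrains class III homeodomain leucine zipper factors, fell, with log2 changes of -0.89 ± 0.20 (SE, adjusted p = 0.029) and -0.95 ± 0.19 (SE, adjusted p = 0.035).

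Protein kinases and signalling genes supplied 5 members out of 30 tested, of which 3 fell in both years. TMK1 (VIT_04s0043g00160), a receptor kinase that takes part in auxin signalling in Arabidopsis, had 19.7, 16.2 and 22.2 RPKM at (v + 35), against 46.7, 37.8 and 39.1 RPKM at (v + 28) in N100 berries of 2013. In 2014 it had 10.0, 9.82 and 10.1 RPKM at (v + 35), against 21.8, 26.1 and 24.4 RPKM at (v + 28). The stages were clear of each other, and it fell, with log2 changes of -1.08 ± 0.14 (SE, adjusted p = 0.0065) and -1.23 ± 0.08 (SE, adjusted p = 0.0011).

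IQD26 (VIT_05s0020g03980), a calmodulin-binding protein, fell, with log2 changes of -1.08 ± 0.15 (SE, adjusted p = 0.0081) and -0.73 ± 0.12 (SE, adjusted p = 0.021), and a protein kinase family gene (VIT_15s0046g02030) did so with -0.91 ± 0.15 (SE, adjusted p = 0.013) and -0.98 ± 0.13 (SE, adjusted p = 0.012). The other 2 members passed in neither year. CIPK20 (VIT_10s0003g01410), a kinase steered by calcineurin B-like calcium sensors, had 26.5, 18.7 and 44.3 RPKM at (v + 35), against 77.7, 44.5 and 50.4 RPKM at (v + 28) in 2013, with no overlap but a wide spread, and the changes were -0.98 ± 0.31 (SE, adjusted p = 0.078) and -0.50 ± 0.14 (SE, adjusted p = 0.074). For a putative serine/threonine kinase (VIT_16s0022g01640) the changes were -0.62 ± 0.37 (SE, adjusted p = 0.29) and -0.48 ± 0.14 (SE, adjusted p = 0.078). SPX2 (VIT_11s0016g05330), of the SPX proteins that sense phosphate status in plants, fell, with log2 changes of -1.10 ± 0.20 (SE, adjusted p = 0.017) and -1.09 ± 0.17 (SE, adjusted p = 0.018), and its N100 libraries of 2014 had 11.2, 10.7 and 13.2 RPKM at (v + 35), against 32.1, 19.7 and 26.0 RPKM at (v + 28).

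Transporters supplied 3 members out of 36 tested. CLC-B (VIT_14s0068g02190), a chloride channel family member whose Arabidopsis relatives move nitrate and chloride across the vacuolar membrane, fell in both years. It had 3.69, 2.48 and 3.52 RPKM at (v + 35), against 16.2, 7.66 and 10.2 RPKM at (v + 28) in N100 berries of 2013, and 1.50, 0.949 and 0.943 RPKM at (v + 35), against 4.11, 3.88 and 3.17 RPKM at (v + 28) in 2014. No libraries overlapped between stages, and the changes were -1.62 ± 0.26 (SE, adjusted p = 0.012) and -1.38 ± 0.16 (SE, adjusted p = 0.0071).

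CAX3 (VIT_08s0007g02240), a calcium and proton exchanger, fell in 2013, with a log2 change of -1.12 ± 0.12 (SE, adjusted p = 0.0041), with 13.9, 12.2 and 11.5 RPKM at (v + 35), against 24.6, 27.8 and 30.9 RPKM at (v + 28). In 2014 its change of -0.69 ± 0.24 (SE, adjusted p = 0.11) was not called, with 4.44, 2.10 and 4.28 RPKM at (v + 35), against 5.08, 5.93 and 6.62 RPKM at (v + 28), which were close but apart. An ABC transporter family protein (VIT_16s0050g01620) had the reverse, with -0.79 ± 0.27 (SE, adjusted p = 0.091) in 2013 and a fall of -1.12 ± 0.16 (SE, adjusted p = 0.016) in 2014. A difference between the years did not pass for either gene. An auxin efflux carrier family protein (VIT_04s0044g01860), filed among unassigned genes, fell, with log2 changes of -1.14 ± 0.15 (SE, adjusted p = 0.0069) and -0.66 ± 0.09 (SE, adjusted p = 0.012). A gibberellin-regulated family protein (VIT_14s0066g01790), the 1 member among 18 hormone genes tested, fell in 2013, with a log2 change of -1.36 ± 0.21 (SE, adjusted p = 0.011) and had -0.73 ± 0.19 (SE, adjusted p = 0.057) in 2014.

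Of 32 photosynthesis and chlorophyll genes tested, only PORA (VIT_19s0014g03160) was a member. It encodes protochlorophyllide oxidoreductase, which carries out the light-dependent step of chlorophyll synthesis. In N100 berries of 2013 it had 21.9, 14.4 and 27.1 RPKM at (v + 35), against 40.7, 35.6 and 43.2 RPKM at (v + 28). In 2014 it had 11.3, 13.1 and 14.8 RPKM at (v + 35), against 22.8, 22.1 and 25.2 RPKM at (v + 28). The stages did not overlap, and the changes were -0.94 ± 0.21 (SE, adjusted p = 0.029) and -0.82 ± 0.10 (SE, adjusted p = 0.01). In the whole list, 1 gene fell in 2013 and 3 fell in 2014, 0 rose, and the medians were -0.08 and -0.19. CYP38 (VIT_14s0066g01410), a cyclophilin that in Arabidopsis chloroplasts assists the assembly of photosystem II and is filed among protein genes, passed in neither year, with -0.44 ± 0.12 (SE, adjusted p = 0.056) and -0.29 ± 0.12 (SE, adjusted p = 0.16).

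Both aspartyl protease family members had a lower level at (v + 35). The first (VIT_08s0007g02470) fell, with log2 changes of -0.70 ± 0.17 (SE, adjusted p = 0.039) in 2013 and -1.11 ± 0.11 (SE, adjusted p = 0.0046) in 2014. The other (VIT_19s0085g01110) had 2.41, 1.89 and 4.08 RPKM at (v + 35), against 4.03, 5.41 and 6.91 RPKM at (v + 28) in N100 berries of 2013, which overlapped slightly, and a change of -0.88 ± 0.27 (SE, adjusted p = 0.068). In 2014 it fell, with a log2 change of -1.43 ± 0.16 (SE, adjusted p = 0.0069). A DNAJ heat shock protein (VIT_03s0038g02110), a co-chaperone, fell, with log2 changes of -1.05 ± 0.19 (SE, adjusted p = 0.016) and -0.85 ± 0.15 (SE, adjusted p = 0.027).

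A methyladenine glycosylase family protein (VIT_01s0010g00020), of the enzymes that excise damaged bases from DNA, had 15.5, 11.5 and 18.6 RPKM at (v + 35), against 44.3, 28.9 and 35.3 RPKM at (v + 28) in N100 berries of 2013, and 5.37, 4.76 and 5.62 RPKM at (v + 35), against 17.0, 23.8 and 20.2 RPKM at (v + 28) in 2014. The stages were apart, and it fell, with log2 changes of -1.23 ± 0.20 (SE, adjusted p = 0.013) and -1.85 ± 0.12 (SE, adjusted p = 0.0012). A lipid transfer protein family member (VIT_11s0016g05840), of the small proteins that carry lipids to the surface layers, fell, with log2 changes of -1.75 ± 0.34 (SE, adjusted p = 0.02) and -1.17 ± 0.15 (SE, adjusted p = 0.01). A glyoxalase I family protein (VIT_12s0035g00880), of the enzymes that clear methylglyoxal, fell, with log2 changes of -1.72 ± 0.37 (SE, adjusted p = 0.027) and -0.95 ± 0.20 (SE, adjusted p = 0.038). A GDSL-motif lipase (VIT_14s0066g00250) fell in 2013, with a log2 change of -0.83 ± 0.20 (SE, adjusted p = 0.035), and its 2014 value of -0.58 ± 0.07 (SE, adjusted p = 0.0093) stayed just above -0.6.

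A strictosidine synthase family gene (VIT_04s0210g00050), named after an enzyme of alkaloid synthesis in periwinkle, was the 1 member among 20 secondary metabolism genes tested. It had -0.75 ± 0.26 (SE, adjusted p = 0.099) in 2013 and fell, with a log2 change of -0.69 ± 0.09 (SE, adjusted p = 0.011) in 2014. Of those 20 genes, 0 fell and 7 rose in 2013, and 1 fell and 1 rose in 2014. A neurofilament-related protein (VIT_05s0020g01080) had -0.31 ± 0.12 (SE, adjusted p = 0.13) in 2013 and fell, with a log2 change of -0.86 ± 0.12 (SE, adjusted p = 0.014) in 2014. The nutrient reservoir gene (VIT_04s0008g04050), the 1 seed storage gene among the 162, had 0.233, 0.106 and 0.130 RPKM at (v + 35), against 1.22, 0.825 and 1.00 RPKM at (v + 28) in N100 berries of 2014 and had the lowest mean level of the described genes. It fell, with log2 changes of -1.44 ± 0.18 (SE, adjusted p = 0.006) and -1.20 ± 0.14 (SE, adjusted p = 0.0084). The 8 cell division, 23 defence and 8 redox genes tested held none of the 162, which lists of this size cannot set apart from the 7.56% of all described genes.

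Among the 119 genes without a description, 2 had the largest mean falls in control berries. VIT_05s0020g02830 had 11.4, 14.2 and 12.4 RPKM at (v + 35), against 47.5, 41.2 and 47.1 RPKM at (v + 28) in N100 berries of 2013, and 14.5, 12.8 and 14.4 RPKM at (v + 35), against 36.8, 38.9 and 41.1 RPKM at (v + 28) in 2014. The stages were far apart, and it fell, with log2 changes of -1.80 ± 0.11 (SE, adjusted p = 0.0011) and -1.45 ± 0.07 (SE, adjusted p = 0.0011). VIT_11s0052g01200 had 1.12, 0.517 and 1.03 RPKM at (v + 35), against 5.35, 4.11 and 6.79 RPKM at (v + 28) in 2014, and fell, with log2 changes of -1.59 ± 0.17 (SE, adjusted p = 0.0042) in 2013 and -2.10 ± 0.22 (SE, adjusted p = 0.0066) in 2014.

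The last of these lies in a dense run. Identifiers of the grapevine annotation give the chromosome and count genes along it, and 7 of 9 tested genes from VIT_11s0052g01180 to VIT_11s0052g01300, on chromosome 11, were among the 162. TCH4 is the last of them and the other 6 have no description. All 7 fell in N100 berries of 2014, with log2 changes of -2.10 to -0.92, and 3 of them fell in 2013, with changes of -1.59 to -0.68. Over all 7 the changes of 2013 ran from -1.59 to -0.21. Only uniquely aligned reads had been counted, so levels of near-identical neighbouring copies, if there are any here, are uncertain. In all, 14 of the 162 genes stood in 8 pairs with consecutive identifiers.

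Genes near the threshold show how the list ends. Just inside it were AGP20, with control changes of -0.60 in 2013 and -0.94 in 2014, and CYP38, with -0.61 and -0.84. Just outside were EXGT-A4 (VIT_01s0150g00460), a xyloglucan transferase with -0.76 and -0.597, and TUB6 (VIT_08s0040g00980), a beta-tubulin with -0.59 and -1.04. The N100 changes of EXGT-A4 were -0.64 and -0.55, and those of TUB6 were -0.26 and -0.64.

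The N100 changes of both years were also compared with each other. The fall was deeper in 2013 for 101 genes and deeper in 2014 for 61. The difference between the years passed at an adjusted p not above 0.05 for 11 of the 162 genes, which is 6.79% and near the 7.39% of all genes, with 8 deeper in 2013 and 3 deeper in 2014. PME1 was the 1 described gene among the 11. Across the 162 genes the changes of both years had a Pearson r of 0.43 and a Spearman rho of 0.41, as a description over genes that share the same 6 libraries in each year.

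The level of these genes was also set between treatments, over both stages. The control libraries of this comparison are those whose difference between stages chose the genes, so its counts are not independent of the selection. The study reported a ripening delay of a few days under nitrogen and saw no need for different sampling dates. The treatments were thus not matched for maturity, and the part of maturity in this difference was not tested. In 2013, 26 of the 162 were higher in N100 berries and 1 was lower, where 1.16% of all genes were higher and 0.850% lower. The median log2 difference was 0.21 for the 162 and -0.10 for all genes. With median ratio scaling the split of all genes moved from 200 higher and 147 lower to 281 higher and 73 lower, the medians were 0.31 for the 162 and -0.01 for all genes, and 34 of the 162 were higher and 1 lower. Of the 26 higher genes 24 were among the 43 described ones, which the study had chosen on nitrogen response in these libraries, and 2 among the 119 others. The median was 0.66 for described genes and 0.10 for the rest. With the stages averaged for each replicate number, which leaves 3 values a treatment, 1 of the 162 genes was higher and 0 lower. No share of all genes is given for that setting, so a general loss of calls cannot be told apart from a loss among the 162. In 2014, 0 of the 162 passed by limma, where 0.0349% of all genes were higher and 0.00582% lower. Before adjustment 11 had a p not above 0.05, which is 6.79%, against 7.01% of all genes. The median difference was 0.04, against -0.03 for all genes.

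**Figure D5:**
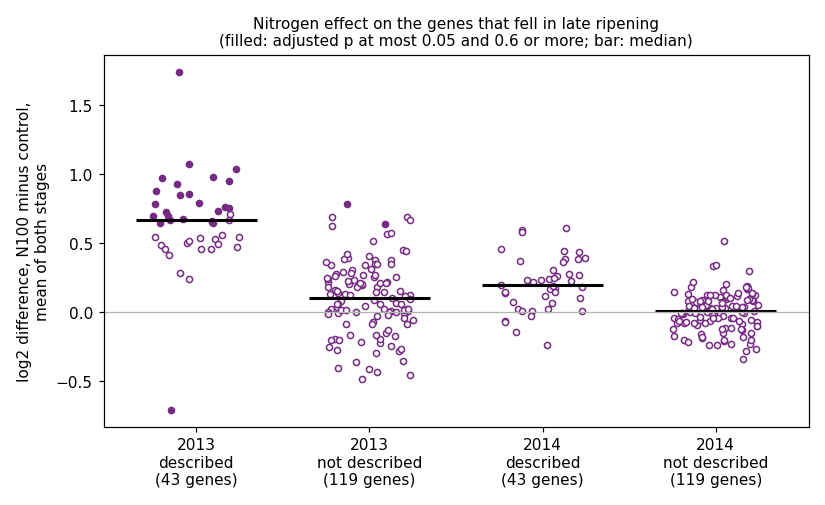
Log2 difference between soil N100 and control berries, as the mean of both stages, for the described and the other genes among the 162 in each year. Filled points passed (adjusted p not above 0.05, difference 0.6 or more in size), bars are medians, and sideways scatter has no meaning. The described genes of 2013 had a median of 0.66, and no gene passed in 2014.

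The pectate lyase gene had the largest of these differences among described genes, 1.74 ± 0.20 (SE, adjusted p = 0.0057), in 2013. The study had chosen the described genes on nitrogen response in these libraries, and the control libraries had chosen the members. The p-values of single genes for this difference are therefore not independent of either choice. Its N100 libraries, given above, exceeded every control library of the same stage, which had 1.46, 0.863 and 0.978 RPKM at (v + 35), against 2.18, 2.43 and 3.69 RPKM at (v + 28). CLC-B was higher by 1.07 ± 0.19 (SE, adjusted p = 0.011), AGP20 by 1.04 ± 0.16 (SE, adjusted p = 0.0098) and the glycosyl transferase family 1 gene by 0.95 ± 0.17 (SE, adjusted p = 0.011). The 1 gene that was lower in N100 berries was a copper chaperone-related gene (VIT_05s0077g01700), of the proteins that pass copper on to target enzymes, with -0.71 ± 0.11 (SE, adjusted p = 0.0098). It had 2.02, 3.00 and 2.14 RPKM at (v + 35), against 2.61, 3.41 and 3.06 RPKM at (v + 28) in N100 berries of 2013, and 3.34, 3.98 and 3.63 RPKM at (v + 35), against 4.96, 6.94 and 6.08 RPKM at (v + 28) in control berries. Every N100 library was below every control library of its stage, and its fall in N100 berries was not called in either year, with -0.30 ± 0.17 (SE, adjusted p = 0.26) and -0.49 ± 0.13 (SE, adjusted p = 0.06). Genes listed as markers of other tissues also differed in part between the treatments in these libraries. These lists were drawn from the same gene tables of the study. A difference between the treatments is therefore not independent of how their genes were chosen. The phloem list held 3 PP2-B genes, matched by description, and their phloem specificity was not tested. They summed to 31.0 to 41.6 RPKM in N100 libraries and 12.1 to 19.9 RPKM in control libraries at (v + 35) of 2013. At (v + 28) they summed to 20.7 to 46.7 RPKM in N100 libraries and 9.68 to 13.9 RPKM in control libraries. In 2014, when no member passed, they summed to 76.4 to 87.1 RPKM in N100 libraries and 56.8 to 76.0 RPKM in control libraries at (v + 35), and to 63.3 to 78.8 RPKM in N100 libraries and 48.8 to 56.0 RPKM in control libraries at (v + 28). The seed storage and LEA genes summed to 449 to 539 RPKM in N100 libraries and 683 to 896 RPKM in control libraries at (v + 35) of 2013, and the seed regulators to 11.3 to 14.6 RPKM in N100 libraries and 17.7 to 23.3 RPKM in control libraries. At (v + 28) of 2013, and at both stages of 2014, both seed lists overlapped between the treatments. The part of either tissue in the nitrogen differences was not tested.

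At the 2 stages taken alone the selection itself acts on the difference, since it took genes with low control values at (v + 35) and high ones at (v + 28), and the values are a description only. There the N100 minus control difference of the 162 genes in 2013 had a median of 0.24 at (v + 35) and 0.17 at (v + 28), where all genes had -0.10 and -0.10. In 2014 the medians were 0.13 at (v + 35) and -0.03 at (v + 28), where all genes had -0.01 and -0.05.

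Counts of falling genes moved with single libraries and with the fit. With all 12 libraries of the year in the fit, 53 of the 162 passed in 2014, where 0.646% of all genes fell. With a block for the replicate number 109 passed in 2013, where 4.31% of all genes fell, and 43 in 2014, where 0.367% fell. Without a filter on low values 62 passed in 2013, where 1.33% of all genes fell, and 21 in 2014, where 0.145% fell. Without replicate 3 of N100 at (v + 28) the 2014 count was 49 of 162, where 0.478% of all genes fell. In 2013 it was 51 without replicate 1 of N100 at (v + 28), where 1.08% of all genes fell, and 60 without replicate 1 at (v + 35), where 1.53% fell. The nitrogen count of 2013 was 16 without control replicate 2 at (v + 28) and 17 without control replicate 2 at (v + 35). The count of year differences was 3, 4 and 6 without N100 replicate 1 at (v + 28), replicate 1 at (v + 35) and replicate 2 at (v + 35) of 2013. For these nitrogen and year counts no share of all genes is given. A loss among the 162 can therefore not be told apart from a general loss of calls.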

How the data were processed

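Poly(A) RNA of whole berries was sequenced in 24 libraries. Per the labels and the methods of the study, the authors called bases with CASAVA 1.8.2, mapped reads with TopHat2 2.0.10 and Bowtie2 2.1.0 to the 12X grapevine genome, kept unique alignments, counted them per gene of the CRIBI V1 annotation with HTSeq 0.5.4p3 and deposited RPKM, 1 table per year, without pooling replicates. The library kit does not mark strand, so reads where genes overlap cannot be assigned by strand. Read numbers recovered from the RPKM steps were whole within 0.01 reads for 100% of genes and gave 29.6 to 80.0 M reads in genes per library. By its methods, the study laid out each treatment in randomized blocks of vines, gathered berries block by block and sequenced 3 biological replicates a condition. The labels name no batch and do not tie a replicate number to a block.

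Python 3.11.15 with scipy 1.17.1, pandas 2.3.3 and numpy 2.4.6 handled the tables and matplotlib 3.10.9 the plots. log2(RPKM + 0.5) of genes averaging 0.5 RPKM or more in a year was fitted with limma 3.58.1 in R 4.3.3 with an intensity trend, the 6 N100 libraries alone for the stage change and all 12 for the nitrogen effect. Fold changes are on that scale and understate changes of low genes. P-values were Benjamini-Hochberg adjusted over all genes tested, and a gene was called at 0.05 with a log2 change of at least 0.6 in size. Year differences used Welch-Satterthwaite degrees of freedom. An exact test of 3 against 3 libraries cannot go below 0.1. The procedure was tested on simulated data. Descriptions came from the study's gene tables. Named genes were the described members, up to 6 a list in order of their control fall, the 2 undescribed genes with the largest fall, and the nearest genes on both sides of the threshold. The members and lists were chosen with earlier results of these data known.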

Additional observations from a re-analysis of the deposited data

Results flagged for a closer look

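PME1 (VIT_09s0002g00330), the pectinesterase gene, was the 1 named gene whose late-ripening change in N100 berries differed between the years by a test of the difference itself. The change was -1.15 in 2014 and -0.29 in 2013, so that the difference, 2014 minus 2013, was -0.86 ± 0.22 (SE, adjusted p = 0.036, Benjamini-Hochberg over 16899 genes). Clone, rootstock and season changed with the year and cannot be told apart in this difference. PME1 is among the genes that the study chose on nitrogen response in these same libraries. Its p-value for the year difference is therefore not independent of that choice.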

How the results depend on the processing

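The direction of the N100 change was negative for each of the 162 genes tested in every alternative of 2014 (a higher filter tests fewer of them) and for all but at most 1 gene in those of 2013. The counts moved more. Without a filter on low values 62 genes fell in 2013 and 21 in 2014. With all 12 libraries of the year in the fit the 2014 count was 53, and leaving out 1 N100 library gave 51 to 102 genes in 2013 and 49 to 102 in 2014. Same-numbered N100 libraries of both stages deviated together weakly at most (r of 0.03 to 0.28 in 2013 and -0.41 to 0.04 in 2014, 2 of 3 and 0 of 3 libraries correlating best with their own number). The main fits therefore left them unpaired, but 3 libraries a group are too few to exclude shared blocks. With a replicate block the counts were 109 in 2013, where 4.31% of all genes fell, and 43 in 2014, where 0.367% fell. For the nitrogen effect of 2013, averaging the stages gave 1 gene higher and 0 lower, and leaving out 1 library gave 16 to 32 for those higher and 1 in each case for those lower. In 2014, leaving out 1 library gave 0 to 1 genes higher. The count of year differences ranged from 3 to 14 when 1 N100 library was left out. The selection itself gave 258 genes at a threshold of -0.5, 29 at -1 and 126 to 227 when 1 control library was left out. Median ratio scaling gave 110 genes, all among the 162, and quantile normalization gave 118, of which 110 were among the 162. Adding 0.1 or 1 to the RPKM in place of 0.5 gave 223 and 122 genes. The cause of these shifts was not tested, and no share of all genes is given for the nitrogen and year counts. Over the 45 genes followed singly, 280 of 3134 recomputed values lost a call, 54 gained one and 0 reversed. A low read number limits the scarcest genes.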
